A study of Mus musculus with 4 samples.

Results

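Among the 4992 cells of the libraries sorted for Lin- progenitors and CD11b+ cells of mouse bone marrow, 262 were taken as T, NK or B lymphocytes without plasma cells. Members were chosen by a rule on the measured RNA of each cell in unique molecular identifiers (UMIs), which count captured RNA molecules. A cell was kept when Jchain made up under 0.3% of its UMIs (which leaves out plasma cells), Siglech had at most 1 UMI (which leaves out plasmacytoid dendritic cells) and S100a8 with S100a9 made up under 5% (which leaves out neutrophils). It then needed at least 2 of the 4 T cell genes Cd3d, Cd3e, Cd3g and Trbc2 with a UMI, or at least 5 Ccl5 UMIs, or at least 3 UMIs together of Cd79a and Cd79b, the signalling chains of the B cell receptor, and Ms4a1, which encodes CD20. Cells that met the T criterion alone or with Ccl5 are called T, those that met the Ccl5 criterion alone Ccl5-high, and those that met the B criterion without the T criterion B, while cells that met both the T and the B criterion were kept apart. The members were 76 of 1924 cells in the WT library and 186 of 3068 in the *Tet2* KO library, of 8969 cells in the whole series.

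The study profiled how loss of Tet2, an enzyme that oxidises 5-methylcytosine in DNA, alters bone marrow progenitors. *Tet2* KO was an Mx1-Cre Tet2 fl/fl mouse and WT a Cre-negative Tet2 fl/fl littermate, and both had been given polyinosinic-polycytidylic acid (pI:pC). The Mx1 promoter answers to interferon and is not restricted to one blood lineage, so deletion was not directed at lymphocytes. Each genotype had 1 library of this sort, so a difference below compares those libraries and not the genotypes, and no test was made. Granulocyte-monocyte progenitors (GMPs) were sorted into 1 further library per genotype.

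Lymphocytes recognise antigen through receptors that each cell assembles by cutting and joining gene segments. T cells carry a receptor of alpha and beta or gamma and delta chains together with the CD3 proteins, while NK cells lack such a receptor and use germline-encoded receptors of the Klr and Ncr families. B cells arise in the marrow: pre-B cells pair a new heavy chain with the surrogate light chain of Vpreb and Igll1, divide, then make a true light chain and leave for the periphery, and plasma cells that secrete antibody later return to the marrow. Mature lymphocytes carry surface proteins against which lineage antibodies are raised, and the staining reagents named by the study include antibodies to CD3e, CD4, CD8 and B220, so the cells described here are what a sort aimed at other cells retained, and their shares are not those of whole marrow.

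The libraries had a median of 11091.5 (WT) and 10417 (*Tet2* KO) UMIs per cell, and 22681380 and 34024599 UMIs in all. Every deposited cell had at least 5003 UMIs, and the study states a minimum of 5000. Resting lymphocytes are known to hold little RNA. Members had medians of 7414 UMIs (T), 10035 (Ccl5-high) and 11202.5 (B) in WT and 8283, 11263.5 and 10155 in *Tet2* KO. Between 4 and 8 cell barcodes were shared by any pair of the series' libraries, and none of them belonged to a member. All intervals below are exact 95% intervals that cover counting error only, and a level in CPM is the count of a gene per 1e6 UMIs of the named cells.

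T cells were 7 of 1924 cells in WT (0.364%, interval 0.146 to 0.748%) and 58 of 3068 in *Tet2* KO (1.89%, 1.44 to 2.44%), so the intervals did not overlap. Ccl5-high cells were 11 (0.572%, 0.286 to 1.02%) and 24 (0.782%, 0.502 to 1.16%), and B cells 58 (3.01%, 2.30 to 3.88%) and 95 (3.1%, 2.51 to 3.77%), with overlapping intervals for both classes. Cells that met both the T and the B criterion were 3 in WT and 18 in *Tet2* KO before the exclusions. The limit on Jchain left out all 3 of the former, so that 0 of 1924 cells remained in WT, which allows a share of up to 0.156% by 3 counts and 0.192% by the exact interval, and 9 in *Tet2* KO (0.293%, 0.134 to 0.556%). These shares follow from the rule and are a description. Of the T cells, 2 in WT and 19 in *Tet2* KO had exactly 2 of the 4 T cell genes, and just outside the limit 35 and 94 cells had exactly 1. For Ccl5, 1 and 7 cells without the other criteria stood just inside the limit at 5 or 6 UMIs, and 1 and 2 just outside at 4. For the B genes, 15 and 22 cells stood just inside at 3 UMIs, and 104 and 107 just outside at 2. The 3 exclusions removed 6 of 13 WT and 15 of 82 *Tet2* KO cells that met the T criterion, and the limit on Jchain left out 157 of 221 and 165 of 277 cells that met the B criterion.

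**Figure D1:**
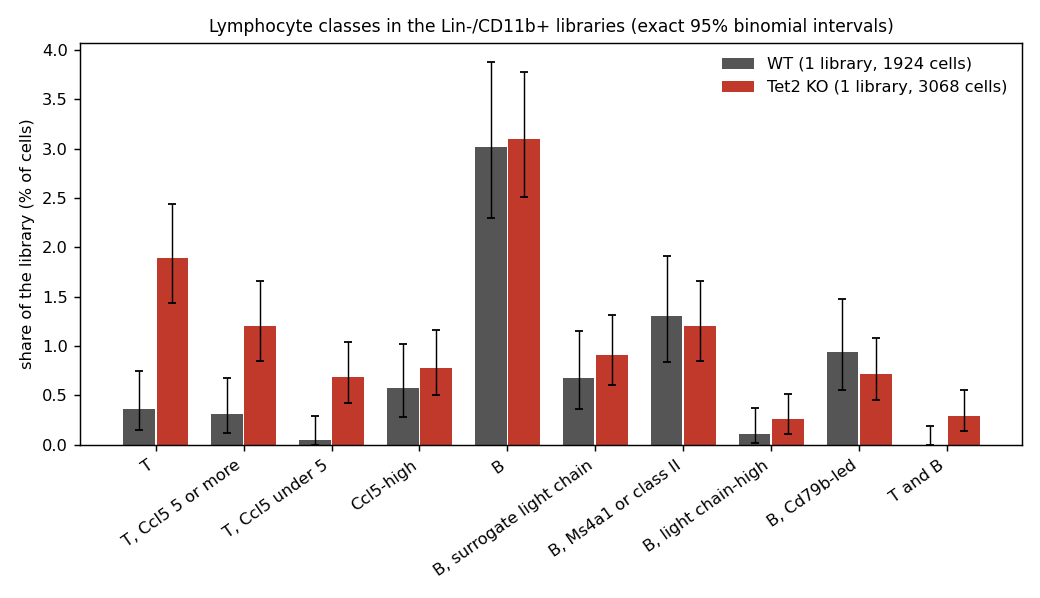
Share of each library (% of cells, vertical axis from 0) taken by the lymphocyte classes and their divisions (horizontal axis), with WT in grey, *Tet2* KO in red and exact 95% binomial intervals as bars. The T share is 0.364% in WT and 1.89% in *Tet2* KO with intervals that do not meet, while the B shares, 3.01% and 3.1%, lie within each other's interval.

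The same rule found no T cell in either GMP library, but 58 of 1258 WT and 90 of 2719 *Tet2* KO GMPs met its B criterion. Those GMPs met it mainly through Cd79b: each had a Cd79b UMI (median 3), while Cd79a was found in 1 cell of each library and Ms4a1, Ebf1 and Pax5 in none. Their median of Mpo, the myeloperoxidase of granulocyte precursors, was 101 and 90.5 UMIs. Cd79b also had a UMI in 611 of 1848 WT and 735 of 2882 *Tet2* KO cells outside the classes, so the B criterion alone does not mark a B cell and the B class was divided further below. Cd3d was rarer outside the classes, with a UMI in 26 of 1848 and 57 of 2882 cells. Igkc, the kappa light chain that plasma cells make in bulk, had a UMI in 1809 of 1848 and 2791 of 2882 cells outside the classes, so a few Igkc UMIs in a cell are background here.

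**Figure D2:**
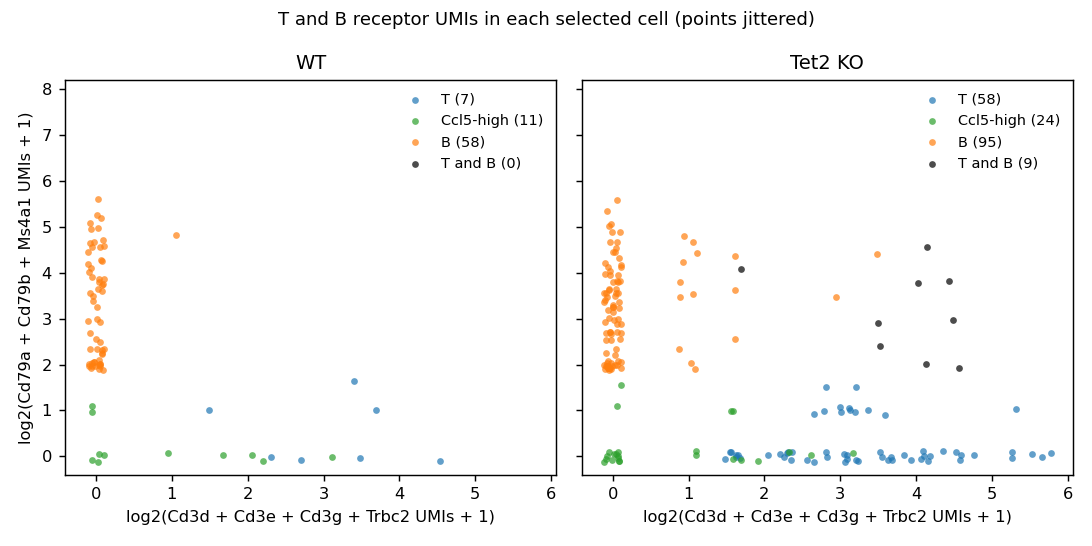
Each point is a selected cell, with the log2 of its summed T cell gene UMIs plus 1 (horizontal axis) against that of its summed B cell gene UMIs plus 1 (vertical axis), for WT (left) and *Tet2* KO (right), coloured by class and jittered. Most T and B cells lie near separate axes, and the 9 cells of the T and B class, all in *Tet2* KO, lie off both, as do 2 *Tet2* KO cells of the B class with at least 7 T cell gene UMIs.

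The CD3 chains are encoded side by side on chromosome 9 (mm10, Cd3g chr9:44969572-44980431 on the minus strand, Cd3d chr9:44981786-44987339 on the plus strand, 1354 bases apart, and Cd3e chr9:44998740-45009627 on the minus strand). Of the 7 WT T cells, the summed UMIs of the 4 rule genes were 2, 4, 6, 10, 10, 12 and 21, and over the 58 *Tet2* KO T cells they ran from 2 to 55 with a median of 8. Cd3d had a UMI in 5 of 7 WT and 49 of 58 *Tet2* KO T cells, Cd3g in 7 and 45, Trbc2, the constant part of the beta chain, in 7 and 51, and Cd3e in 4 and 31. Of the 12 T cell markers that the rule did not use, 7 in WT and 11 in *Tet2* KO were at least 2-fold above the other cells of the same library, on CPM with 10 added, against 5.54 and 1.78% of all 18695 genes. Cd5, Cd6, Bcl11b and Themis, which late thymocytes and conventional T cells use, had no UMI in the 7 WT cells and were found in 7, 5, 6 and 5 of the 58 *Tet2* KO cells.

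The 10 genes outside the rule that stood highest above the other cells in both libraries were led by chemokine, receptor and signalling genes of lymphocytes. Xcl1, a chemokine that draws cross-presenting dendritic cells, was at 340.5 CPM in WT and 176 CPM in *Tet2* KO T cells, against 1.37 and 2.13 CPM in the other cells. Trac, the constant part of the alpha chain, was at 131 CPM (62.8 to 241) and 117 CPM (90.6 to 148), against 0.183 and 1.22 CPM. The others were Gimap4, a lymphocyte GTPase, Ms4a4b, Sh2d1a, the adaptor SAP, Thy1, the adhesion receptor Cd2, the cytokine Ltb, Il2rb, which binds IL-15 and IL-2, and Lck, the kinase that starts T cell receptor signals. Each of them was at least 7.57-fold above the other cells in the library where it stood lower, on CPM with 10 added.

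Ccl5, a chemokine stored by effector and memory T cells and NK cells, divided the T class. It reached 5 UMIs in 6 of 7 WT and 37 of 58 *Tet2* KO T cells, and its median over the class was 30 and 11.5 UMIs. Among the 37 *Tet2* KO T cells with Ccl5, 34 had Nkg7, 28 Klrd1, 23 Xcl1, 17 Klrb1c (NK1.1), 11 Ncr1 (NKp46), 10 Eomes and 8 Trdc, and 13 had Trac. Of the 21 without it, none had Klrb1c or Ncr1, 6 had Nkg7, 1 Klrd1, 2 Xcl1 and 1 Trdc, while 9 had Trac and 7 had Cd4, the co-receptor of helper T cells. All 7 Cd4-positive cells of the library's T class were thus among those under 5 Ccl5 UMIs, and 2 of them had some Ccl5. The split by Ccl5 uses a measured value of the same cells, so these counts are a description.

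Trac and the NK receptors were seldom detected in the same cell, and whether less often than sparse detection alone would give was not tested. In *Tet2* KO, 17 T cells had Trac without Ncr1 or Klrb1c, 17 had Ncr1 or Klrb1c without Trac, 5 had both and 19 neither. In WT the numbers were 3, 3, 0 and 1. A gene of 1 or 2 UMIs is missed in many cells, so a cell without Trac is not shown to lack the alpha chain. Gamma delta genes (Trdc, Tcrg-C1, Tcrg-C2 or Tcrg-C4) were found in 17 *Tet2* KO T cells, 6 of them with Trac, and in 3 WT T cells, none with Trac. NK cell markers at least 2-fold above the other cells were 17 of 24 in WT and 16 of 24 in *Tet2* KO, against 5.54 and 1.78% of all genes. By marker counts the T class thus held cells with NK as well as T cell RNA.

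Markers of T cell subsets were sparse. Cd8a had a UMI in 1 WT and 2 *Tet2* KO T cells and Cd4 in 0 and 7. Foxp3, the factor of regulatory T cells, was found in 4 *Tet2* KO T cells at 1 UMI each, Ctla4 in 7 and Icos in 6, and none of them in WT. Among genes of naive cells, Ccr7 had a UMI in 1 and 2 cells, Lef1 in 1 and 6 and Tcf7 in 3 and 11. Killing genes were low as well: Gzma, a granzyme, was found in 1 WT and 3 *Tet2* KO T cells, Gzmb in 0 and 3, Prf1 (perforin) in 1 and 4, and Ifng in 1 and 7.

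Monocyte RNA stood above the other cells in the *Tet2* KO T class. In WT the median of Lyz2 was 2 UMIs, and 2 of the 7 T cells had 50 or more. Lyz2, the lysozyme of monocytes and granulocytes, was at 0, 1, 2, 2, 3, 73 and 162 UMIs in the 7 WT T cells, and from 0 to 483 with a median of 42.5 in the 58 *Tet2* KO T cells. Of the latter 20 cells had 0 to 2 Lyz2 UMIs, 9 had 3 to 49 and 29 had 50 or more, so the cells fell largely into a group without and a group with much of it. As a level, Lyz2 was at 8961 CPM in the *Tet2* KO T cells against 3607 CPM in the other cells of the library, and at 3182 against 2731 CPM in WT. All 12 monocyte and macrophage markers were detected in *Tet2* KO, 5 of them at least 2-fold above the other cells, with a summed level of 14416 CPM against 7259 CPM. In WT 10 of 12 were detected, 1 was 2-fold above, and the sum was 6954 against 5910 CPM. Over all genes, 1.78% in *Tet2* KO and 5.54% in WT were at least 2-fold above the other cells. Neutrophil markers went the other way, at 2712 against 23517 CPM in *Tet2* KO and 419 against 32507 CPM in WT, which the rule's limit on S100a8 and S100a9 shapes.

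The T cells were then split by myeloid RNA, meaning at least 50 Lyz2, 20 Mpo or 50 S100a8 UMIs, a limit set after the values were seen. It was met by 3 of 7 WT and 38 of 58 *Tet2* KO T cells, and by 974 of 1848 and 1561 of 2882 cells outside the classes. Itgam, which encodes CD11b, had a UMI in 19 of the 38 *Tet2* KO T cells with myeloid RNA and in 2 of the 20 without. The summed T cell genes had medians of 7 and 14 UMIs in these groups, and median total UMIs were 9535 and 6978. T cells without myeloid RNA were 4 of all 1924 cells of the WT library (0.208%, interval 0.0567 to 0.531%). In *Tet2* KO they were 20 of all 3068 (0.652%, 0.399 to 1.005%), and the intervals overlapped. No doublet caller was run, and the part of droplets with 2 cells or of free RNA in these values was not tested.

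**Figure D3:**
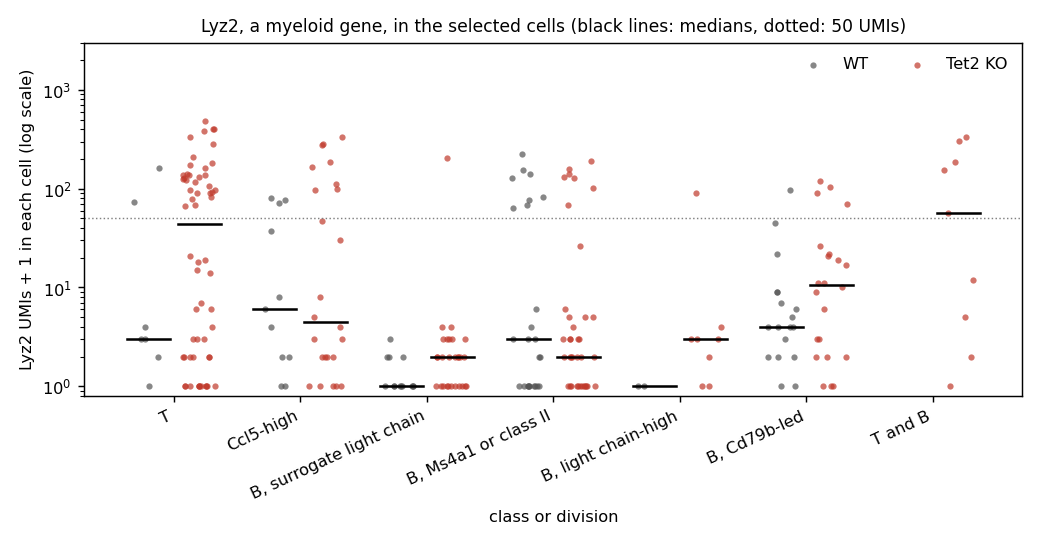
Lyz2 UMIs plus 1 in each selected cell (vertical log axis) by class or division (horizontal axis), WT in grey and *Tet2* KO in red, with black lines at the medians and a dotted line at 50 UMIs. The *Tet2* KO T cells spread up to 483 UMIs with 29 of 58 at 50 or more, while all 13 WT and 25 of 28 *Tet2* KO B cells with surrogate light chain have at most 2.

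The Ccl5-high class, which met no T or B criterion, was led by NK cell genes in both libraries. Ccl5 ran at medians of 22 (WT) and 12 (*Tet2* KO) UMIs per cell. The 10 genes furthest above the other cells were Klra7, Xcl1, Klrb1c, Ctsw, Klre1, Ms4a4b, Bcl2a1b, AW112010, Klri2 and Ltb, of which Klra7, Klrb1c, Klre1 and Klri2 belong to the NK receptor families. Klra7, a Ly49 receptor, was at 67.3 CPM (30.8 to 128) in WT and 80.1 CPM (50.2 to 121) in *Tet2* KO, against 0.321 and 0.688 CPM in the other cells. Klrb1c was at 82.3 and 69.2 CPM, against 0.550 and 1.31 CPM. Of 24 NK cell markers 16 were at least 2-fold above the other cells in each library, against 3.12 and 1.11% of all genes, and of the 12 T cell markers outside the rule 3 and 4. Trac and Cd3e had no UMI in any of the 35 cells, and neither had Cd4 or Cd8a. The rule let these cells hold fewer than 2 of the 4 T cell genes, so it shaped the absence of Cd3e. Some cells did have Cd3d, Cd3g or Trbc2. The summed UMIs of the 4 genes had a median of 0 and reached 7 in a WT and 8 in a *Tet2* KO cell.

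Not every cell of the class carried NK receptors. Ncr1 or Klrb1c had a UMI in 5 of 11 WT and 11 of 24 *Tet2* KO cells, and all 16 of these also had Nkg7, a granule protein. Xcl1 was found in all 5 and in 8 of 11 of them, but in 1 of 6 and 3 of 13 of the cells without Ncr1 and Klrb1c. Antigen presenting genes were found mainly in the latter in *Tet2* KO: H2-Aa, a class II chain, was at 2541 CPM in the 13 cells without the NK receptors and 61.2 CPM in the 11 with them, and Cd74, its chaperone, at 6756 CPM in those 13. H2-Aa reached 10 UMIs in 2 WT and 6 *Tet2* KO cells of the class. In WT the order was not the same, with H2-Aa at 188 CPM without and 1043 CPM with the receptors, the latter from 1 cell of 45 UMIs. A single WT cell without the receptors held 27 UMIs of Ccr7, which guides mature dendritic cells and lymphocytes to lymph nodes, and no *Tet2* KO cell of the class held any.

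Effector genes were sparse in the Ccl5-high class too. Gzma had a UMI in 1 of 11 and 5 of 24 cells, at 14.96 CPM (1.81 to 54.0) in WT and 83.7 CPM (53.1 to 126) in *Tet2* KO. Gzmb was found in 0 and 1 cell, and Prf1, Ifng and S1pr5, a receptor by which mature NK cells leave the marrow, in none. Eomes, a transcription factor of NK cells, was found in 2 and 3 cells and Tbx21 in 0 and 1. Myeloid RNA by the limit above was absent from 7 of 11 and 10 of 24 cells, and Lyz2 was at 2080 and 5986 CPM against 2731 and 3607 CPM in the other cells.

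**Figure D4:**
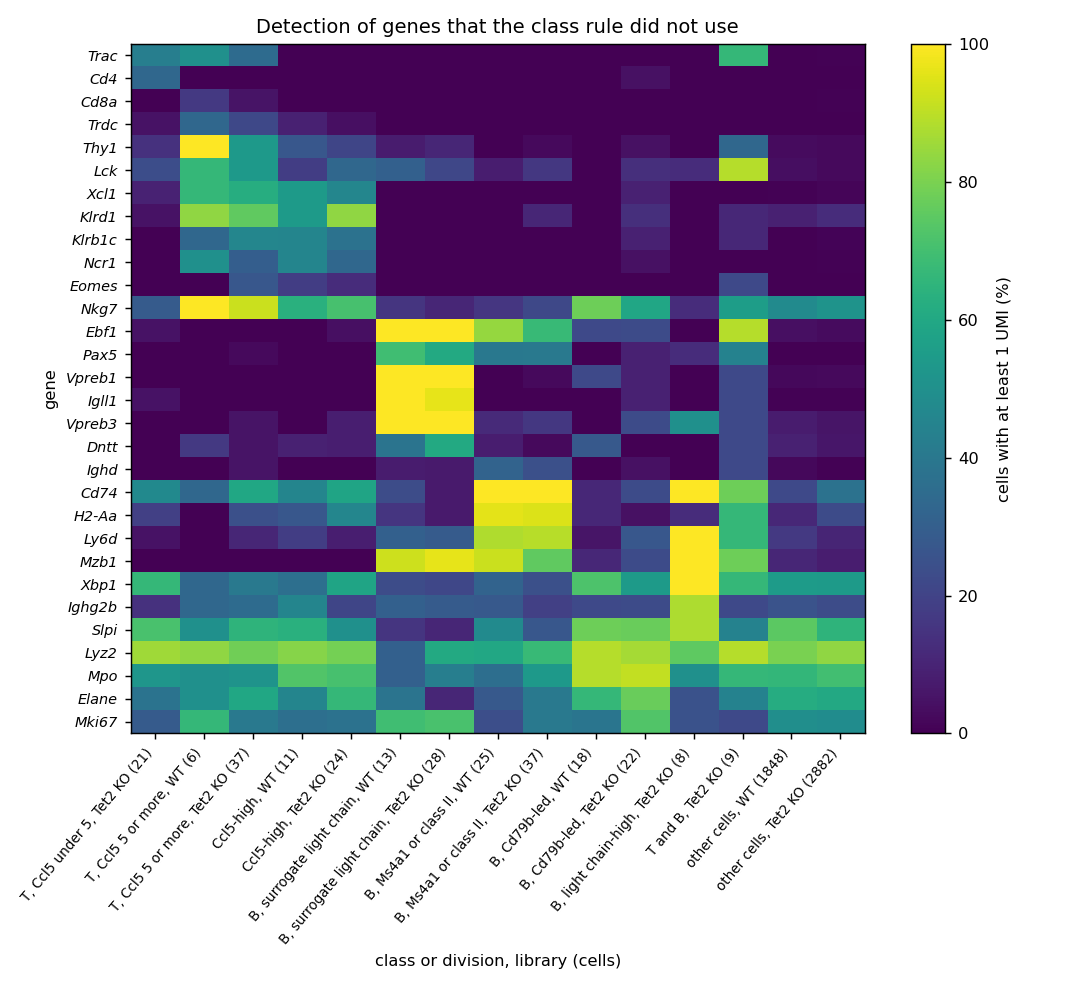
Percent of cells with at least 1 UMI (colour, 0 to 100%) for genes that the class rule did not use (rows), in each class or division and library with its number of cells (columns, without the WT light chain-high and the lone WT T cell under 5 Ccl5 UMIs). Trac and Cd4 mark T columns and the NK genes those with Ccl5. Ebf1 was found in 100% of surrogate light chain cells and in at least 67.6% of Ms4a1 or class II cells of each library. It was also in most T and B cells. Mpo and Elane are found in the Cd79b-led columns but are not particular to them. Vpreb1 and Igll1 helped choose the surrogate light chain cells and H2-Aa the Ms4a1 or class II cells. Their detection in those columns follows from the division.

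The B class was divided, after its values were seen, by genes of B cell stages. Cells with at least 10% of UMIs from Igkc and the lambda constant genes are called light chain-high. Of the rest, cells with at least 3 UMIs of Vpreb1, Vpreb2 and Igll1 are called surrogate light chain cells, then those with an Ms4a1 UMI, or with a Cd79a UMI and at least 3 H2-Aa UMIs, Ms4a1 or class II cells, and all others Cd79b-led. In this order the divisions held 2, 13, 25 and 18 cells in WT and 8, 28, 37 and 22 in *Tet2* KO. As shares of the libraries they were 0.676% (0.360 to 1.15%) and 0.913% for surrogate light chain cells and 1.30% (0.843 to 1.91%) and 1.21% for Ms4a1 or class II cells, without a gap beyond the intervals. Near the limits, 5 WT and 7 *Tet2* KO B cells had 1 to 4 surrogate light chain UMIs, and 0 and 3 had between 5 and 15% light chain UMIs.

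Surrogate light chain cells had RNA of early B cell genes in both libraries. Vpreb1 and Igll1, which together form the surrogate light chain, lie 4417 bases apart on chromosome 16 (mm10, Vpreb1 chr16:16868403-16870843 and Igll1 chr16:16860671-16863985, both on the minus strand). Vpreb1 was at 1179 CPM (WT) and 1364 CPM (*Tet2* KO) with a median of 13 UMIs per cell in both, and Igll1 at 917 and 1217 CPM with medians of 11 and 10.5 UMIs. Vpreb2, a close copy of Vpreb1 with which it can share reads, was at 204 and 331 CPM. Of the genes that did not choose the cells, Ebf1, the factor that sets B cell identity, had a UMI in 13 of 13 and 28 of 28 cells, at 1433 CPM (1240 to 1648) and 1747 CPM (1587 to 1919), and Vpreb3 likewise had one in every cell. Others were found in part of the cells. Lef1 was found in 10 and 22 cells, Pax5 in 9 and 17, and Il7r, the receptor for the cytokine on which early B cells live, in 7 and 12.

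Other genes varied among these cells. Dntt, the polymerase that adds bases at joined segments, had a UMI in 5 of 13 and 17 of 28 cells, and Rag1 or Rag2, which cut the segments, in 4 and 6. Mki67 or Top2a, genes of dividing cells, were found in 12 of 13 and 27 of 28, and in 1227 of 1848 and 1911 of 2882 other cells. Of 44 cell cycle genes 12 and 20 were at least 2-fold above the other cells, against 7.04 and 4.71% of all genes of at least 10 CPM there. Class II genes were low: H2-Aa had a UMI in 2 cells of each library and Cd74 in 3 and 2. Ms4a1 was found in 1 WT cell and no *Tet2* KO cell. Monocyte markers summed to 262 CPM against 5910 CPM in the other WT cells and to 1623 against 7259 CPM in *Tet2* KO, where 1 cell with 202 Lyz2 UMIs held 89.0% of the Lyz2 UMIs. Without the genes that chose the cells, 9 of 13 early B cell markers in each library and 8 and 9 of 13 pan B cell markers were at least 2-fold above the other cells, against 4.05 and 2.88% of all genes.

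Ms4a1 or class II cells had the RNA of more mature B cells. Without the genes that chose the cells, all 13 pan B cell markers were at least 2-fold above the other cells in both libraries, and of 16 mature B cell markers 12 were in WT and 10 in *Tet2* KO, against 2.97 and 1.76% of all genes. Genes outside both the rule and the division included Zcwpw1, Gimap4, Ebf1, H2-DMb2, Fcmr, a receptor for IgM, Gm31243, Ltb and Cd2 among the 10 furthest above the other cells. H2-DMb2 was at 300 and 264 CPM, against 7.15 and 11.6 CPM in the other cells. Cd74 was at 9037 CPM in WT and 7983 CPM in *Tet2* KO, with medians of 64 and 50 UMIs per cell. Ighd, which encodes the IgD of naive B cells, had a UMI in 8 of 25 and 9 of 37 cells. The receptors of follicular and marginal zone B cells were nearly missing, with Fcer2a in 1 WT cell and Cr2 in 1 *Tet2* KO cell. Bhlhe41 and Zbtb32, factors of B-1 and memory B cells, each had a UMI in 10 of 25 and 10 of 37 cells, at 56.3 and 56.2 CPM for Bhlhe41 and 70.3 and 67.5 CPM for Zbtb32, against at most 2.70 CPM in the other cells. Cd5, which marks B-1a cells, was found in 0 and 1 cell. Of 10 genes listed for B-1 and age-associated B cells 3 and 4 were at least 2-fold above the other cells. Lyz2 reached 50 UMIs in 8 of these 25 WT and 7 of these 37 *Tet2* KO cells, and Itgam had a UMI in 5 and 6.

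Light chain-high cells resembled antibody-secreting cells that the limit on Jchain had not removed. In the 2 WT cells light chains made up 37.2 and 50.6% of UMIs, and in the 8 *Tet2* KO cells between 12.1 and 51.8%. Of 8 plasma cell markers other than Jchain, 5 and 8 were at least 2-fold above the other cells, against 3.07 and 1.60% of all genes. The WT count rests on 2 cells. Among these markers was Xbp1, the factor of secretory cells, at 1367 and 1127 CPM against 133 and 120 CPM. Ebf1 had no UMI in any of the 10 cells. By these markers, summed over the cells, they go against the label of lymphocytes without plasma cells. Ighg2b, the heavy chain of IgG2b, was at 1367 and 4989 UMIs in the WT cells and from 0 to 3730 in the *Tet2* KO cells. The *Tet2* KO cells with 0 and 2 Ighg2b UMIs had 24 and 285 UMIs of Ighm, the heavy chain of IgM. The former had 5 Ms4a1 UMIs and the latter 90 Lyz2 UMIs, so the division was mixed.

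Within the 8 *Tet2* KO light chain-high cells, 5 stood apart. They had 1080, 1280, 1410, 1566 and 2091 UMIs of Slpi, a secreted inhibitor of leukocyte proteases, while the other 3 had 0, 3 and 4 and the WT cells 41 and 87. The same 5 cells held at least 209 Ly6c2 and at least 1815 Ighg2b UMIs each, and all had 4 or more UMIs of the light chain segment Igkv4-53 (4, 4, 8, 17 and 19). Igkv4-53 had a UMI in 1 further member, in 2 of 176 *Tet2* KO plasma cells (Jchain at or over the limit) and in 4 of 2706 remaining *Tet2* KO cells, and in no WT cell. Variable segments resemble one another and reads at the 3′ end seldom reach them, so such counts may be shared among segments. Cells with at least 500 Slpi UMIs outside the members were 2 *Tet2* KO and 4 WT plasma cells. These cells were singled out after their values were seen.

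Cd79b-led cells mostly went against the B label. Their Cd79b was at a median of 3 UMIs, the limit itself, with Cd79a in 2 of 18 and 5 of 22 cells and Ms4a1 in none. Mpo was at 2659 CPM (2466 to 2863) in WT and 2747 CPM (2569 to 2933) in *Tet2* KO, above 1839 and 1643 CPM in the other cells, and Elane, the elastase of promyelocytes, at 3565 and 3948 CPM. All 9 early myeloid progenitor markers were detected, with sums of 13072 and 15138 CPM against 10097 and 8371 CPM. Of the 13 pan B cell markers that did not choose the cells, 1 and 2 were at least 2-fold above the other cells. These are 7.69 and 15.4% of the markers, against 0.546 and 0.289% of all genes. Ebf1 was found in 4 and 5 cells, with up to 7 and 14 UMIs in a cell. The gene furthest above the other cells, Slc16a1, a lactate transporter, was only 2.04-fold above them, and 1 *Tet2* KO cell held 589 UMIs of Mcpt8, a protease of basophils. They are called by their leading gene, but they stay in the B class of the rule, which is what the comparison below covers unless a division is named.

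Most of the 9 *Tet2* KO cells of the T and B class had RNA of both lineages beyond the few genes of the rule. Cd3d and Cd3g had a UMI in all 9, Trac in 6 and Lck in 8, while Cd79a was found in 8, Ms4a1 in 7 and Ebf1 in 8. The cell without Cd79a had 3 Cd79b UMIs as its B genes, no Ms4a1 or Ebf1, and 81 Mpo UMIs. The median of the 9 was 9857 UMIs, against 8283 in T and 10155 in B cells of the library. Lyz2 reached 50 UMIs in 5 of them, and 3 had no myeloid RNA by the limit above. Whether they were droplets with more than 1 cell was not tested, and they are left out of the comparison below.

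The B class alone had at least 20 cells in both libraries, so it alone was compared gene by gene. Over its 58 WT and 95 *Tet2* KO cells, with 645535 and 1079194 UMIs, 6115 genes had at least 20 UMIs. On CPM with 10 added, 67 of them (1.1%) were at least 2-fold higher in *Tet2* KO and 31 (0.507%) at least 2-fold lower, which is 1.6% in either direction, and the median log2 ratio over all 6115 was -0.00. Without the Cd79b-led cells, 34 of the 67 and 11 of the 31 kept their call. Slpi was at 437 CPM in WT and 7072 CPM in *Tet2* KO, a ratio of 16.2 (14.4 to 18.3). The 5 light chain-high cells described above held 97.3% of the *Tet2* KO Slpi UMIs. Jchain was at 60.4 and 296 CPM, a ratio of 4.89 (3.50 to 7.01), or 2.54 as a mean over cells. Ly6c2 had a ratio of 3.48 (3.18 to 3.82) and Edem1, which clears misfolded proteins from the endoplasmic reticulum, of 3.09 (1.87 to 5.34). Light chain-high cells held 85.6% of the *Tet2* KO Jchain, 78.6% of the Edem1 and 60.2% of the Ly6c2 UMIs of the class. Within the Ms4a1 or class II cells alone the ratios of Slpi, Jchain and Edem1 were 0.502, 0.545 and 0.600, the opposite direction, and that of Ly6c2 was 1.67. S100a8, an alarmin of neutrophils, had a ratio of 3.86 (3.20 to 4.69), which was 0.687 without cells with myeloid RNA. The rule set upper limits on Jchain and on S100a8 with S100a9, so it shaped the levels of Jchain and S100a8 in the class.

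**Figure D5:**
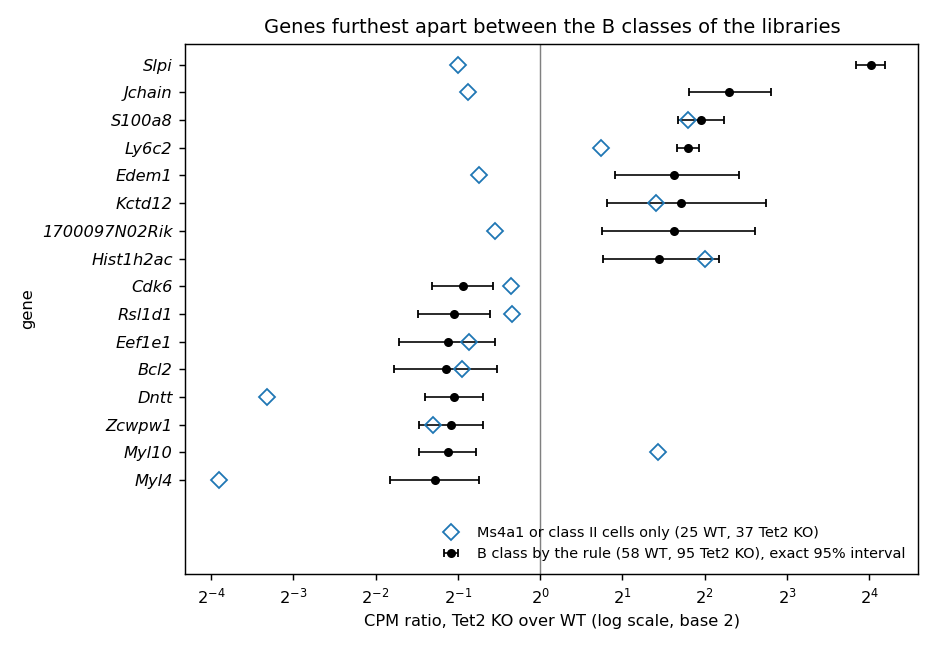
CPM ratio of *Tet2* KO over WT (horizontal log axis, base 2) for the 8 highest and 8 lowest named genes of the B class (vertical axis), as points with exact 95% intervals for the B class and as open diamonds, without intervals, for Ms4a1 or class II cells alone. Slpi at 16.2 and Jchain at 4.89 move below 1 in the diamonds and Myl10 at 0.459 above it, while Zcwpw1 is at 0.473 for the B class and 0.406 in the diamonds.

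The other 3 of the 8 highest were Kctd12, Hist1h2ac and 1700097N02Rik. Kctd12 was at 18.6 and 61.2 CPM, found in 9 of 58 and 40 of 95 cells, and within Ms4a1 or class II cells it was at 32.8 and 87.1 CPM. Hist1h2ac, a histone gene, was at 34.1 and 92.7 CPM, and 1700097N02Rik at 20.1 and 62.1 CPM. The lowest were Myl4, Myl10, Zcwpw1, Dntt, Bcl2, Eef1e1, Rsl1d1 and Cdk6, with CPM ratios from 0.412 to 0.522. Dntt was at 239 and 116 CPM over the class, but at 502 and 495 CPM within surrogate light chain cells, and 1 WT cell held 30.5% of its WT UMIs. Bcl2, which keeps mature lymphocytes alive, was at 82.1 and 37.1 CPM, and at 141 CPM (94.9 to 201) and 73.1 CPM (47.7 to 107) within Ms4a1 or class II cells. Zcwpw1 was at 595 and 242 CPM within those cells, found in 19 of 25 and 11 of 37, and at 8.34 and 5.22 CPM in the other cells of the libraries.

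Within the 25 WT and 37 *Tet2* KO Ms4a1 or class II cells 2960 genes had at least 20 UMIs, of which 115 (3.89%) were at least 2-fold higher in *Tet2* KO and 39 (1.32%) at least 2-fold lower, which is 5.2% in either direction. The highest were Elane, S100a8, Hist1h2ae, Ctsg, Mpo, Nkg7, Hist1h2ap and Anxa1, with CPM ratios from 2.43 to 4.77. Elane, Ctsg and Mpo encode granule proteins of granulocyte precursors, and a single cell held 45.4% of the *Tet2* KO UMIs of Elane and 73.8% of the WT UMIs of Mpo. Early myeloid progenitor markers summed to 1444 CPM in WT and 4452 CPM in *Tet2* KO, with 9 of 9 detected in both, and their part in the counts was not tested. Lyz2, also a myeloid gene, went the other way and was among the 8 lowest. It was at 4448 CPM in WT and 2738 CPM in *Tet2* KO, a ratio of 0.615 (0.562 to 0.674). Cells without myeloid RNA by the limit above were 16 of 25 in WT and 28 of 37 in *Tet2* KO. Ighm, the heavy chain of IgM, was the second lowest at 2920 CPM in WT and 1439 CPM in *Tet2* KO, a ratio of 0.493 (0.438 to 0.555). It was found in 25 of 25 and 36 of 37 cells with medians of 20 and 11 UMIs. The other cells, plasma cells included, had 2907 and 1128 CPM of Ighm.

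Gene lists gave small shifts over the B class. Of all 6115 genes, 1.1% were at least 2-fold higher in *Tet2* KO and 0.507% at least 2-fold lower. Of 29 interferon-stimulated genes with at least 20 UMIs none was past 2-fold, with a median log2 ratio of 0.34 for *Tet2* KO over WT against -0.00 over all genes. Class I and peptide loading genes (18 genes, median 0.28), class II genes (11, -0.04), ribosomal proteins (74, -0.21), cell cycle genes (44, 0.08), antigen receptor signalling (20, 0.01), immediate early genes (22, 0.07), survival and death genes (19, -0.12) and genes of DNA methylation (15, -0.05) had none past 2-fold either. Homing and adhesion receptors had a median of 0.39 over 17 genes with 1 higher, Cxcr4, which holds early B cells in the marrow, at 21.7 and 53.7 CPM. Lymphoid transcription factors had a median of 0.23 over 29 genes with 3 higher. These were Foxo1, which drives Rag and Il7r, in 2 of 58 and 21 of 95 cells, Irf4 in 3 and 22 cells, and Ikzf2 in 2 and 10 cells. Within surrogate light chain cells Foxo1 was found in 1 of 13 and 11 of 28 and Irf4, which pre-B cells use to open the light chain genes, in 1 and 8. Killing genes had a median of 0.26 over 7 genes with 1 higher, Ctsw, and lymphocyte cytokines -0.21 over 7 with 1 higher, Ccl5, which stood at 2 UMIs in WT. In *Tet2* KO, Ccl5 was mostly in 2 Cd79b-led cells, at 29 and 15 UMIs. Within the Ms4a1 or class II cells the medians of the interferon-stimulated and class I genes were 0.04 and 0.04. That of lymphoid transcription factors was -0.16 there, over 20 genes with none past 2-fold. In the B class without Cd79b-led cells it was 0.02.

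A list of 12 genes known from earlier results to differ between these libraries in other cells was read in the B class as well. Of 9 with at least 20 UMIs, S100a8 was higher and Ctse, Gm47283 and Hoxa7 lower past 2-fold. Over all 6115 genes, 1.1% were higher and 0.507% lower past 2-fold. Without cells with myeloid RNA the ratio of S100a8 was 0.687. Ctse, an aspartic protease, had a UMI in 22 of 58 WT and 3 of 95 *Tet2* KO cells of the B class (52.7 and 2.78 CPM), and in 622 of 1848 and 93 of 2882 other cells (37.8 and 3.13 CPM). By division it was found in 7 of 13 against 2 of 28 surrogate light chain cells and in 9 of 25 against 0 of 37 Ms4a1 or class II cells. T cells showed the same order, with Ctse in 4 of 7 WT and 0 of 58 *Tet2* KO cells. Rpgrip1 went the other way, with 10.8 and 24.1 CPM in the B class and 4.26 and 36.1 CPM in the other cells. The study names its samples by mouse and population, and genotype, mouse and library cannot be told apart here. Tet2 itself was at 15.5 CPM (7.43 to 28.5) in WT and 12.97 CPM (7.09 to 21.8) in the *Tet2* KO B class from 10 and 14 UMIs, a ratio of 0.837 (0.346 to 2.11). Reads at the 3′ end of Tet2 do not show whether the floxed exon was present, so this level is no check of the deletion.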

How the data were processed

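RNA of single bone marrow cells was measured in 4 libraries, 1 per genotype and sort. According to the submitters' processing notes the authors mapped reads to mm10 with Cell Ranger 3.1.0 and filtered in Seurat (the latter without a version). The deposited values are raw UMI counts per gene and cell (18695 genes, 8969 cells), and a table gives each cell's library. The study states minimums of 200 genes and 5000 UMIs and a limit of 5% mitochondrial counts, yet 413 deposited cells had 5% or more and were kept. Gene positions are those of the GENCODE annotation of GRCm38. No column belonged to a sample of another series. The study's own list of cell numbers puts 2 of these totals under other samples. Among them is that of the WT library described here, listed under a *Tet2* KO GMP sample. Groups here follow the GEO labels. Ctse had a UMI in 33.8 and 52.8% of cells of the WT-labelled libraries (Lin-/CD11b+ and GMP), against 3.23 and 2.54% of the *Tet2* KO-labelled. This pairs the libraries by label and does not show which genotype a pair has.

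Counts were summed over the cells of a class and library and divided by their total (CPM). Shares have Clopper-Pearson, levels exact Poisson and ratios exact conditional binomial 95% intervals (Python 3.11.15, scipy 1.17.1). edgeR 4.0.16 served only for TMM and RLE factors. With 1 library per genotype there was no test, and the ratio steps were tested on simulated data. Named were the rule genes, the 10 genes furthest above the other cells (a UMI in at least 25% of cells in both libraries), the 8 highest and 8 lowest ratios (at least 50 UMIs in 1 library and a UMI in at least 20% of cells), genes of the lists and Tet2. The members and the 35 lists were chosen with earlier results of these data known, and the B divisions and the limit on myeloid RNA after values were seen. No doublets were removed. Alternatives covered the limits of the rule, scaling, filters, offsets, depth, mitochondrial counts, myeloid RNA and the B divisions.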

Additional observations from a re-analysis of the deposited data

How the results depend on the processing

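No paired analysis was possible because each genotype had 1 library per sort and the groups share fewer than 2 replicate numbers. The *Tet2* KO T share (1.89%) was 1.27% with at least 3 of the 4 T cell genes, 0.684% with Ccl5-high cells taken before T cells and 0.652% without cells with myeloid RNA, and the WT T share (0.364%) was 0.0520% with Ccl5-high cells taken before T cells. The *Tet2* KO Ccl5-high share (0.782%) was 1.21% with at least 3 T cell genes, 0.424% with at least 10 Ccl5 UMIs, 1.99% taken before T cells and 0.326% without myeloid RNA. The B share was 1.92% (WT) and 2.25% (*Tet2* KO) with at least 5 B gene UMIs, 2.03 and 2.12% with cells thinned to 5000 UMIs, 1.98 and 2.15% without myeloid RNA and 2.08 and 2.38% without Cd79b-led cells. The share with both T and B criteria was 0.0978% in *Tet2* KO without myeloid RNA. Shares without myeloid RNA or without Cd79b-led cells counted the members left against all cells of the library. Of B class genes at least 2-fold higher in *Tet2* KO (67) there were 265 with an offset of 1 CPM, 115 with means over cells, 104 with thinned cells, 110 without myeloid RNA and 115 in Ms4a1 or class II cells alone, and of those lower (31) there were 133, 36, 39, 64 and 39, and 48 without Cd79b-led cells. Of the 67 and 31 genes, 22 and 6 kept their call with thinned cells, 34 and 11 without Cd79b-led cells, 44 and 12 without myeloid RNA and 11 and 3 in Ms4a1 or class II cells alone, where 3 and 1 turned. The ribosomal median was -0.089 in Ms4a1 or class II cells alone and the class II median -0.27 without Cd79b-led cells. Among the named genes, directions that turned were S100a8 (0.687 without myeloid RNA) and, in Ms4a1 or class II cells alone, Slpi (0.502), Jchain (0.545), Edem1 (0.600), 1700097N02Rik (0.685) and Myl10 (2.70). Some list medians also changed sign, with that of lymphoid transcription factors at 0.23 in the B class and -0.16 in Ms4a1 or class II cells alone. Ratios that kept their direction and moved by over 1.5 times were Slpi 28.2, Ly6c2 6.02 and 1700097N02Rik 4.65 without myeloid RNA, Jchain 2.54, Edem1 1.99 and Dntt 0.813 as means over cells, Edem1 1.69 without the 5% of cells with the most UMIs, and Ly6c2 1.67, Myl4 0.0666, Dntt 0.0999 and Rsl1d1 0.789 in Ms4a1 or class II cells alone. The causes were not tested. Alternatives and limits on myeloid RNA, the B divisions and thinning of shares were chosen after seeing the data. Depth and cell number limit the report: with 7 T cells in WT, a gene of a few UMIs per cell could be missed.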
